A study of Mus musculus with 12 samples.

Results

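The genes described are the G1 cyclins and their regulators: the 3 D-type cyclins Ccnd1, Ccnd2 and Ccnd3, the kinases Cdk4 and Cdk6 that they activate, the Cip/Kip inhibitors Cdkn1a, Cdkn1b and Cdkn1c, and the INK4 inhibitors Cdkn2a and Cdkn2b. They were found by gene symbol, and all 10 were present among the 53599 genes of the count table. All 10 also passed the filter on low counts that left 16210 genes for testing, Cdkn2a only through the groups in which it had counts, as given below. The count table came from mouse liver cells sorted while hepatocytes were converting to a biliary identity, and the study asks what changes in expression at the stages of that conversion.

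Every mouse had received AAV8-TBG-Cre, a virus whose Cre is driven by a hepatocyte promoter (TBG), to trace hepatocytes and their progeny by EGFP. From 1 week later all mice ate 0.1% DDC, a compound that injures bile ducts, for 8 weeks. The genotype is given as WT, and neither the reporter allele nor the age of the mice is stated. Early cells were EGFP+ Cd24- Epcam-, intermediate cells EGFP+ Cd24+ Epcam-, full cells EGFP+ Cd24+ Epcam+, and BEC (resident biliary epithelial cells) EGFP- Epcam+. Each group had 3 replicates, and no untreated group is analysed here. The labels do not say whether replicates came from separate mice, so the p-values measure the spread between these libraries, which may be technical.

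D-type cyclins are the part of the cell cycle engine that responds to growth signals. Bound to CDK4 or CDK6 they phosphorylate RB and its relatives, which releases E2F factors and lets a cell pass from G1 into DNA synthesis. INK4 proteins bind CDK4 and CDK6 directly, whereas Cip/Kip proteins act mainly on the cyclin E and cyclin A complexes of CDK2. In liver, cyclin D1 is known as the D-type cyclin that rises when hepatocytes re-enter the cycle, and p21 as a brake on that entry.

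Total counts ran from 15112893 to 19731887 per library. Mitochondrial genes took 6.001%, 11.4% and 5.45% of counts in early, with replicate 2 apart, and between 2.20% and 4.75% in the other groups. Levels are given as CPM, counts relative to a library size scaled by TMM factors, and a gene at 3 counts or fewer, the floor used here, corresponds to between 0.128 and 0.273 CPM depending on the library. Epcam lay between 0.324 and 0.818 CPM in early, 12.4 and 26.7 in intermediate, 207 and 283 in full and 844 and 907 in BEC, so the intermediate cells, gated as Epcam-, were not as low as the early cells. The hepatocyte markers summed to between 101724 and 104803 CPM in early and between 2075 and 2711 in BEC. Among markers of other cells, T and NK, B cell and neutrophil genes reached at most 1.26 CPM in sum in any library. The macrophage list of 8 genes summed to between 23.4 and 25.3 CPM in early, at most 36.1 in intermediate, 65.3 to 90.5 in full and 132 to 153 in BEC. Most of the difference was Csf1r, at a mean of 3.94 CPM in early and 127 in BEC, whereas Adgre1 had 0.135 and 0.522 CPM and Cd68 went the other way, from 13.96 to 3.46. Stellate cell and fibroblast genes summed to between 110 and 322 CPM in early and between 48.4 and 84.1 in full. Endothelial genes summed to 14.2 to 27.2 CPM in early and 2.55 to 5.34 in full, and erythroid genes to 18.7 to 33.3 in early and at most 3.17 in the other groups. What part these cells and the mitochondrial share have in the levels below was not tested. In sorted bulk RNA, fewer cells of a type and less RNA per cell cannot be told apart.

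Promoter sequences of 3 of these genes are shown because each holds a motif of a factor known for cell cycle control. RefSeq promoter tables on GRCm38.p6 held 10 windows for 7 of the 10 genes, and the 250 bases before the start are shown, 5′ to 3′ on the gene's strand, with motif matches in capitals. The deposited counts were made on another build, GRCm39, and were matched by symbol only. For Cdk4 (chr10:127063285-127063534, plus strand) the capitals mark the E-box CACGTG, the palindromic site bound by MYC and related factors. For Cdkn1a (chr17:29090729-29090978, plus strand, the upstream of its 2 windows) they mark a pair of ACATGT copies and the 4 bases between them, a spacing found in some p53 response elements. For Cdkn2a (chr4:89294620-89294869, minus strand, the upstream of its 2 windows) they mark TTTCCCGC, a form of the E2F site.
Cdk4: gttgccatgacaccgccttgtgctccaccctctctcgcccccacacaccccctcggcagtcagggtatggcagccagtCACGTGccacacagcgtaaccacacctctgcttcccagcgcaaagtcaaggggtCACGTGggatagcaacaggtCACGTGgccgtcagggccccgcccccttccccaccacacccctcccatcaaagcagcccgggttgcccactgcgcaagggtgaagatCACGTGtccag
Cdkn1a: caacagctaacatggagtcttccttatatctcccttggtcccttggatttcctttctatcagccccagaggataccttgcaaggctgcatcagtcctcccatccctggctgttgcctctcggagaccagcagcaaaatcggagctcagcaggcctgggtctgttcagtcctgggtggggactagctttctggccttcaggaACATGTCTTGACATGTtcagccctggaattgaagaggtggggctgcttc
Cdkn2a: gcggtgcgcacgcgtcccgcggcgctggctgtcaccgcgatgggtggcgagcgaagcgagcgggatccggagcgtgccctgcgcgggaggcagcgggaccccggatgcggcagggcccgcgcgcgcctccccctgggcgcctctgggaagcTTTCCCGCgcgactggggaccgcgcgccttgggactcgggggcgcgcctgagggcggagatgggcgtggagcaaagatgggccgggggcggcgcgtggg
Both strands were searched, with TTTGGCGC as the other E2F form, and no match in these windows overlapped another. The Cdk4 window held 4 E-boxes. An E-box occurred in 6.02% of the 32851 windows of this length, and 7 windows held at least 4. Cdk6 held 1 E-box. The spaced ACATGT pair occurred in 4 windows (0.0122%) and an E2F form in 1.3%. Among the 10 windows searched, each was found only in the window shown. A match is only a stretch of letters, not a measured binding site.

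Across the 4 groups 9 of the 10 genes differed (edgeR's quasi-likelihood F test, adjusted p under 0.05), beside 75.6% of all genes tested. Ccnd3 was the exception (edgeR adjusted p 0.203). Intermediate against early gave 7 of 10, of which 6 were higher and Ccnd1 was lower, beside 54.4% of all genes (28.7% higher, 25.7% lower). Full against intermediate gave 6 of 10, all higher, beside 40.7% of all genes (20.8% higher, 19.8% lower). BEC against full gave 3 higher and 2 lower, beside 21.3% of all genes (10.7% higher, 10.6% lower). Full against early gave 8 of 10, all higher, beside 71.2% (39.1% higher, 32.1% lower). Cdkn2a had 0 counts in early and intermediate, so intermediate against early could not call it. The filter kept it through full and BEC, and its calls for full were against groups at 0. These counts and the medians that follow include it. The median log2 fold change of the 10 genes was 0.88, 0.45 and 0.10 in the first 3 of these comparisons in turn. That of all genes tested was 0.06, 0.01 and 0.00. The first 2 are the first and second steps of the conversion. BEC against full is not a step, since BEC are EGFP- resident cells. A rise or fall from full to BEC below means a difference between these groups. Scaled by total counts alone, the median over all genes was 0.72 at the first step and 0.21 at the second. Directions here are relative to the TMM scale, under which the share of calls that were higher at the first step was 52.8%, against 85.6% with total counts.

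**Figure D1:**
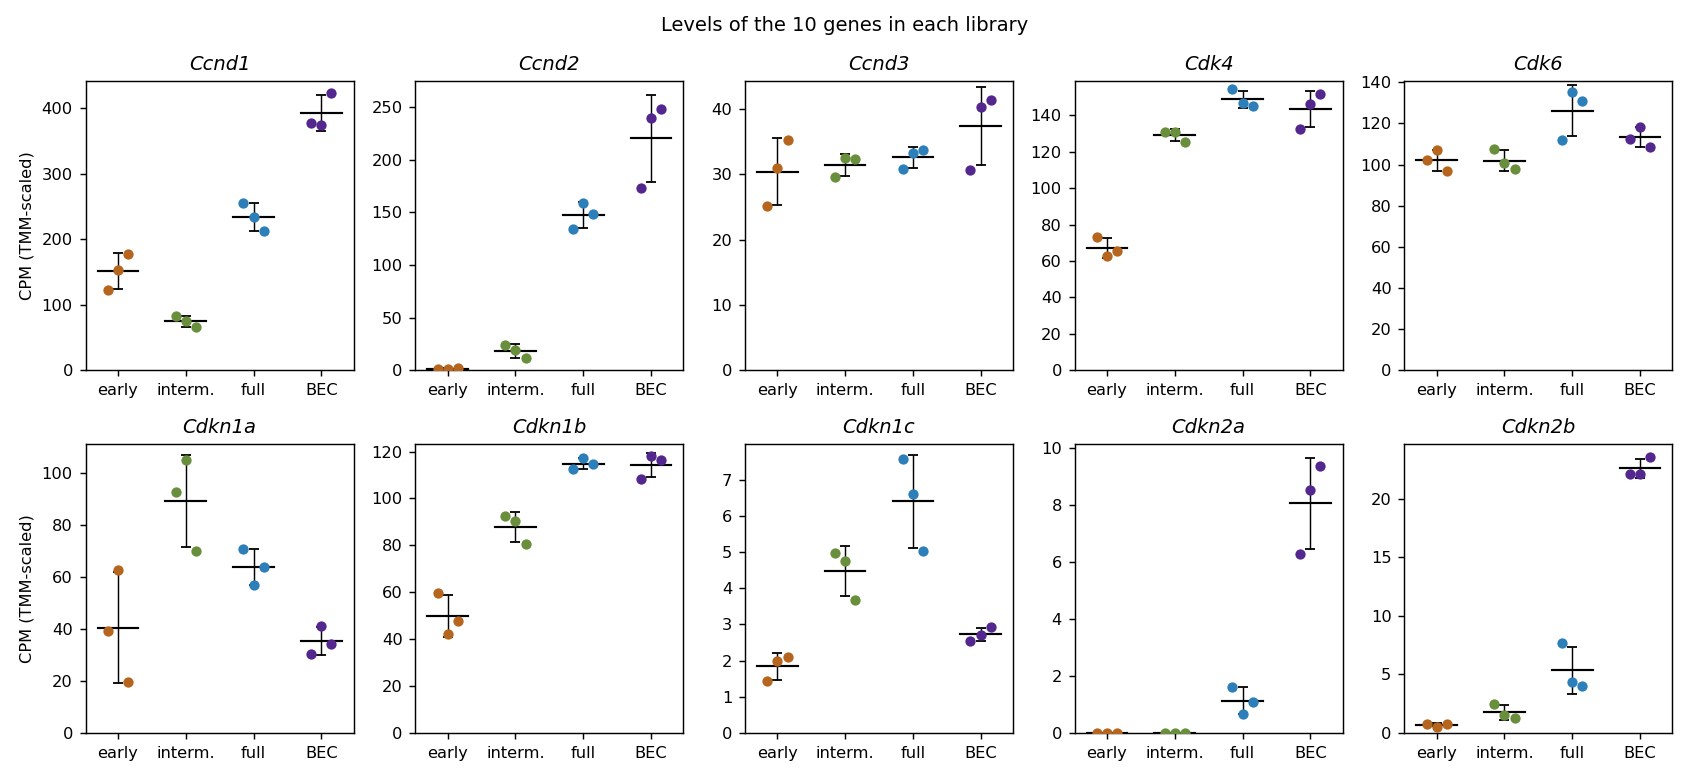
Levels of the 10 genes in CPM on linear axes from 0, by group. Points are the 3 replicates, the long bar is their mean and the whiskers are 1 SD. Ccnd1 is lowest in intermediate, where Cdkn1a is highest, and Cdkn2a is at 0 in early and intermediate.

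The 3 D-type cyclins followed different courses. Ccnd1 had 123, 154 and 177 CPM in the early libraries, 82.5, 74.6 and 66.1 in intermediate, 255, 234 and 213 in full and 378, 375 and 424 in BEC. On the TMM scale no 2 groups overlapped, and every intermediate library was below every other library. Ccnd1 fell at the first step (log2 fold change of -1.02 with SE 0.13, edgeR adjusted p 2.08e-05) and rose at the second (1.65, SE 0.13, edgeR adjusted p 6.89e-07). It rose again between full and BEC (0.75, SE 0.13, edgeR adjusted p 0.000917) and was higher in full than in early (0.63, edgeR adjusted p 0.000705). Within early, the highest Ccnd1 and the highest Mki67 were both in replicate 3. Without that library the first step of Ccnd1 was -0.89 (edgeR adjusted p 0.000103). With total counts the fall was smaller, at -0.36 (edgeR adjusted p 0.0325). Lto1, a coding gene on the other strand whose annotation overlaps Ccnd1 by 1771 bases, had 200 to 452 counts per library, against 1168 to 9278 for Ccnd1, and strand use in the counting is not stated.

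Ccnd2 was close to absent from early cells and abundant in biliary cells. Its level was 0.712, 1.36 and 1.78 CPM in early, from 9, 15 and 22 counts, then 24.0, 19.1 and 11.2 in intermediate, 134, 159 and 149 in full and 173, 240 and 248 in BEC. The ranges of the 4 groups were separate and in that order. It rose at the first step (by 3.81 on the log2 scale, SE 0.34, edgeR adjusted p 6.08e-07) and at the second (3.03, SE 0.24, edgeR adjusted p 5.06e-07). Between full and BEC it was 0.58 higher (SE 0.21) and was not called (edgeR adjusted p 0.0748). A replicate block brought it under the threshold (0.58, edgeR adjusted p 0.0473), as did a fit of the full and BEC libraries alone (edgeR adjusted p 0.0102). Antisense genes that overlap Ccnd2 had at most 6 counts.

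Ccnd3 stayed level. It had 25.1, 30.9 and 35.2 CPM in early, 29.5, 32.4 and 32.3 in intermediate, 30.8, 33.2 and 33.7 in full and 30.6, 40.3 and 41.3 in BEC, so every group overlapped the others. The 95% interval of its log2 fold change was -0.27 to 0.37 at the first step, -0.26 to 0.36 at the second and -0.11 to 0.51 between full and BEC. On the total count scale Ccnd3 was 0.71 higher in intermediate than in early (edgeR adjusted p 0.000547), close to the shift of the median gene. Bysl overlaps the end of Ccnd3 on the other strand and had 215 to 552 counts, against 317 to 904 for Ccnd3.

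Per kilobase of the longest coding transcript, the cyclins can be set beside each other within a library, which also removes the scaling between libraries. Ccnd1 made up 73.5% ± 0.233 of the summed D-type cyclin level in early, 52.8% ± 2.33 in intermediate, 61.7% ± 3.41 in full, then 66.8% ± 3.59 in BEC (SD over 3 libraries). Ccnd2 went from 0.358% ± 0.0957 to 7.48% ± 2.25, 23.0% ± 2.28 and 21.98% ± 2.59, and Ccnd3 from 26.2% ± 0.328 to 39.7% ± 4.48, 15.3% ± 1.25 and 11.2% ± 1.01. Each share differed without overlap at the first 2 steps (2-sided exact permutation p 0.1, and 3 libraries a group allow no lower value). Per kilobase of coding sequence the Ccnd1 share instead went from 59.7% in intermediate to 56.1% in full, with overlap (exact p 0.3), so the direction of that 1 change depends on the length used. From full to BEC the Ccnd3 share was lower without overlap (exact p 0.1), while the shares of Ccnd1 (exact p 0.2) and Ccnd2 (exact p 0.5) overlapped. The summed level was 55.0 ± 9.87 CPM per kilobase in early and 37.6 ± 2.62 in intermediate, against 101 ± 4.16 in full, then 157 ± 14.6 in BEC (SD over 3 libraries). The order of early and intermediate depends on the scaling, since by total counts alone, an alternative added after the data were seen, the sums were 36.4 ± 7.05 and 39.4 ± 3.17. The mean Ccnd3 share was highest in intermediate.

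**Figure D2:**
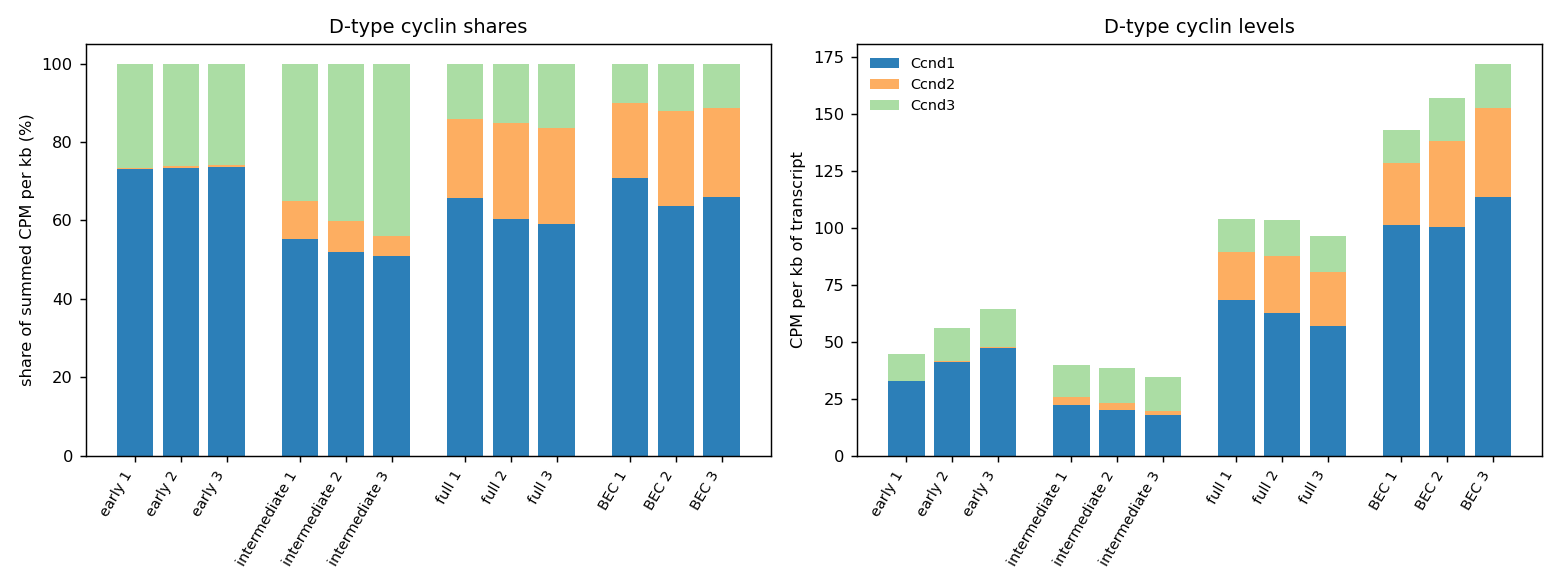
D-type cyclins in each of the 12 libraries, as percent of their summed CPM per kilobase (left) and as CPM per kilobase of transcript, stacked (right). The Ccnd2 share averages 0.358% in early and 23.0% in full, and the stacks are shortest in intermediate on this TMM scale, but not by total counts alone (means of 36.4 in early and 39.4 in intermediate).

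Of the kinases, Cdk4 had 73.3, 62.8 and 65.6 CPM in early, 131, 131 and 125 in intermediate, 154, 147 and 145 in full and 132, 146 and 152 in BEC. Early lay below the other 3 groups, and full and BEC overlapped. Cdk4 rose at the first step (log2 fold change 0.94, SE 0.09, edgeR adjusted p 7.34e-07), opposite in direction to Ccnd1. At the second step it was 0.21 higher (SE 0.08) and not called (edgeR adjusted p 0.0668). DESeq2 (adjusted p 0.0153), median-of-ratios factors (edgeR adjusted p 0.0331) and total counts (edgeR adjusted p 0.00152) each called that rise. Tspan31 overlaps the end of Cdk4 by 641 bases on the other strand and had 1066 to 1999 counts, highest in early, against 691 to 3625 for Cdk4.

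Cdk6 had 102, 107 and 96.8 CPM in early, 107, 101 and 97.7 in intermediate, 112, 135 and 131 in full and 113, 118 and 109 in BEC. It rose by 0.31 on the log2 scale from intermediate to full (SE 0.09, edgeR adjusted p 0.0130), a call lost on leaving out either of intermediate replicates 2 and 3 or either of full replicates 2 and 3 (edgeR adjusted p between 0.0515 and 0.0694). At the first step the 95% interval of its log2 fold change was -0.21 to 0.20. With total counts it was 0.66 higher at that step (edgeR adjusted p 2.17e-05). Per kilobase, Cdk4 was the more abundant kinase in every library, at 78.7% ± 1.77 of the pair in early and 87.7% ± 0.372 in intermediate (SD, n = 3, exact permutation p 0.1). This order depends on the long Cdk6 transcript: per kilobase of coding sequence Cdk4 was 41.5% ± 2.51 of the pair in early and 57.7% ± 0.836 in intermediate (SD, n = 3).

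Of the Cip/Kip inhibitors, Cdkn1a (p21, a p53 target) was highest in intermediate. Its level was 39.4, 62.6 and 19.7 CPM in early, 92.9, 105 and 70.2 in intermediate, 70.9, 56.8 and 63.8 in full and 30.3, 41.0 and 34.3 in BEC. Early libraries were widely spread, and intermediate overlapped full by a small margin. The highest early level was in replicate 2, the library with the highest mitochondrial share (11.4%), whose part was not tested. Cdkn1a rose at the first step (log2 fold change 1.14, SE 0.29, edgeR adjusted p 0.00440). Without early replicate 3, the library with the lowest Cdkn1a, the rise was 0.82 (edgeR adjusted p 0.00615), and without early replicate 2 it was 1.59 (edgeR adjusted p 0.000262). Its second step was -0.48 (SE 0.28, edgeR adjusted p 0.193), and -0.64 to -0.36 in fits without 1 library (edgeR adjusted p 0.0494 to 0.431). Its level in full was 0.66 above early, with overlap (SE 0.29, edgeR adjusted p 0.0557). That last value was 1.10 and called without early replicate 2 (edgeR adjusted p 0.00218), and 0.33 without early replicate 3 (edgeR adjusted p 0.179). It was lower in BEC than in full (-0.86, SE 0.29, edgeR adjusted p 0.0482). This last call was at the threshold, since leaving out any 1 of the full or BEC libraries raised the adjusted p to between 0.0666 and 0.155. It was also lost without early replicate 1 or intermediate replicates 1 or 2 (at most 0.0595), with median-of-ratios factors (0.0506) and with a filter at a mean of 50 counts (0.0597, all edgeR adjusted p).

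Cdkn1b (p27, an inhibitor typical of quiescent cells) had 59.8, 42.4 and 47.8 CPM in early, 92.5, 90.5 and 80.6 in intermediate, 113, 117 and 115 in full and 108, 118 and 116 in BEC. The first 3 groups were separate and full and BEC overlapped. It rose at the first step (by 0.81 on the log2 scale, SE 0.11, edgeR adjusted p 3.35e-05) and at the second (0.39, SE 0.11, edgeR adjusted p 0.0117). The second call was lost without intermediate replicate 3 (0.32, edgeR adjusted p 0.0658). From full to BEC the 95% interval was -0.26 to 0.24.

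Cdkn1c (p57, an imprinted gene) was scarce throughout. It had 1.42, 2.001 and 2.10 CPM in early, 4.97, 4.77 and 3.68 in intermediate, 7.57, 6.60 and 5.03 in full and 2.55, 2.702 and 2.92 in BEC, from 18 to 178 counts. Full libraries stood above all others. It rose at the first step (log2 fold change 1.28, SE 0.25, edgeR adjusted p 0.000725), was 0.52 higher at the second but missed the threshold (SE 0.22, edgeR adjusted p 0.0789), and fell from full to BEC (-1.23, SE 0.23, edgeR adjusted p 0.00131). Cdkn1a and Cdkn1c were thus the 2 genes of the 10 that were called lower in BEC than in full.

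Both INK4 genes were highest in BEC. Cdkn2a had 0 counts in all 6 early and intermediate libraries, 38, 15 and 25 counts in full (1.62, 0.669 and 1.09 CPM) and 130, 183 and 205 in BEC (6.26, 8.53 and 9.37 CPM). A count of 0 allows up to 3 counts per library. Against the highest such floor in the group, the mean of full was 5.97-fold higher than intermediate (edgeR adjusted p 0.000223) and 4.13-fold higher than early. Only the side at 0 is bounded, since the full libraries themselves spanned 0.669 to 1.62 CPM. The filter kept the gene through full and BEC, where it had counts, so these tests are not independent of the filter. BEC exceeded full by 2.83 on the log2 scale (SE 0.36, edgeR adjusted p 0.000387). The gene encodes p16 and p19Arf from separate first exons, and counts per gene do not separate them.

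Cdkn2b (p15), the neighbour of Cdkn2a on chromosome 4, was detected at every stage. It had 0.791, 0.546 and 0.728 CPM in early, from 6 to 10 counts, then 2.45, 1.53 and 1.25 in intermediate, 7.66, 4.37 and 3.98 in full and 22.1, 22.1 and 23.5 in BEC. The 4 groups did not overlap. It rose at the first step (log2 fold change 1.31, SE 0.40, edgeR adjusted p 0.0121), a call lost without intermediate replicate 1 (1.003, edgeR adjusted p 0.0559). It rose at the second step (1.62, SE 0.28, edgeR adjusted p 0.000450) and from full to BEC (2.08, SE 0.25, edgeR adjusted p 3.72e-05). Hepatocyte-derived full cells had 5.34 ± 2.02 CPM of Cdkn2b and resident BEC 22.6 ± 0.829 (SD, n = 3). The macrophage marker sum, mostly Csf1r (67.8 CPM in full, 127 in BEC), moved with both INK4 genes, and its part in them was not tested.

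**Figure D3:**
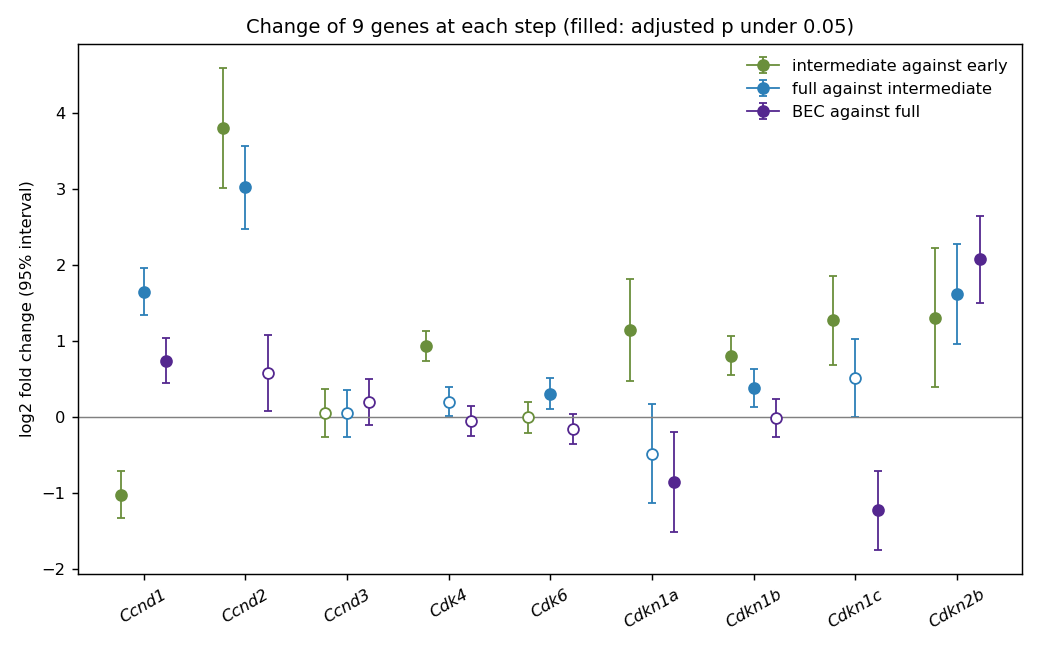
Log2 fold change of 9 genes (Cdkn2a, at 0 in early and intermediate, is left out) for intermediate against early, full against intermediate and BEC against full, with 95% intervals from the standard error. Filled points have an edgeR adjusted p under 0.05. Ccnd1 is the only called point below 0 at the first step, at -1.02.

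The relation of these genes to the drop of proliferation genes at the intermediate stage was examined with lists of genes downstream in the cycle. Of 18 mitosis genes, 13 were called lower in intermediate than in early, with a median log2 fold change of -1.51, beside 25.7% of all genes called lower. All 18 were called higher in full than in intermediate, with a median of 3.02, beside 20.8% of all genes. Mki67, the proliferation antigen, had 16.4, 9.003 and 38.8 CPM in early, 4.40, 2.74 and 7.70 in intermediate, 62.8, 88.8 and 106 in full and 81.8, 78.2 and 106 in BEC. Its first step was -2.12 (SE 0.46, edgeR adjusted p 0.00155) and its second 4.12 (SE 0.46, edgeR adjusted p 1.07e-05). Without early replicate 3 the first step was -1.36 (edgeR adjusted p 0.00883). The first-step count was 6 of 18 without early replicate 3, 7 without intermediate replicate 2, 6 with only the 6 libraries compared and 5 with total counts.

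DNA replication genes were called mainly at the second step. Of 17, 4 were called lower at the first step, a share near the 25.7% of all genes. At the second step 16 were called higher and 1 lower, beside 20.8% and 19.8% of all genes. The count at the first step was 7 without early replicate 1, 6 without early replicate 2 and 2 with total counts. Rrm2, a subunit of ribonucleotide reductase, fell by 2.91 on the log2 scale and then rose by 2.40 (edgeR adjusted p 0.000188 and 0.00127). Without early replicate 3 its first step was -1.95. Mcm5, part of the replicative helicase, was -0.32 at the first step (edgeR adjusted p 0.514), a value that was 0.61 without early replicate 3 (edgeR adjusted p 0.0246), and rose by 2.15 at the second (edgeR adjusted p 0.000372). Early replicate 3 had 23.5 CPM of Mcm5, against 5.46 and 7.55 in the other early libraries.

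Among the partners that act between D-type cyclins and S phase, Ccne1 and Ccna2, the cyclins of CDK2, fell at the first step (-1.12 and -1.55, edgeR adjusted p 0.00400 and 0.0108) and rose at the second (0.75 and 3.40, edgeR adjusted p 0.0434 and 2.84e-05). The first-step call of Ccna2 was lost without early replicate 3 (-0.95, edgeR adjusted p 0.0924), and that of Ccne1 with total counts (-0.46, edgeR adjusted p 0.165). Ccne1 was -0.69 without early replicate 3 (edgeR adjusted p 0.0254). Ccne2 was -0.67 at the first step (edgeR adjusted p 0.228) and rose by 1.15 at the second (edgeR adjusted p 0.0440). Cdk2 itself rose at both (0.39 and 0.40, edgeR adjusted p 0.0105 and 0.00966). The second-step calls of Ccne1 and Ccne2 were lost on leaving out any 1 intermediate, full or BEC library (edgeR adjusted p up to 0.124 and 0.129), and Ccne2 also without early replicate 2. Those of Cdk2 were lost without early replicate 2 or intermediate replicate 1 at the first step, and without intermediate replicates 2 or 3 at the second (edgeR adjusted p up to 0.0531 and 0.0547). Of 8 such partners, 3 were called higher and 2 lower at the first step, and 6 higher at the second. The shares of all genes were 28.7% higher and 25.7% lower at the first step and 20.8% higher at the second. The latter count was 3 without intermediate replicate 2 or 3. At the first step total counts gave 5 higher and 0 lower, and 1 was lower without early replicate 3.

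E2F and DP factors went both ways at the first step. Of 10, 5 were called lower at the first step (E2f1, E2f2, E2f6, E2f7 and E2f8) and 2 higher, and 4 were called higher at the second, beside all-gene shares of 25.7%, 28.7% and 20.8% in turn. The first count was 3 with total counts, with only the 6 libraries compared, without early replicate 3 and without intermediate replicate 1. E2f1, an activator of S-phase genes, went from 10.9, 12.6 and 20.4 CPM in early to 3.58, 5.70 and 4.75 in intermediate and 15.9, 11.6 and 13.2 in full. Its steps were -1.64 and 1.53 (SE 0.27 and 0.26, edgeR adjusted p 0.000137 and 0.000358). E2f8, a repressor within the family, changed by -3.00 and 3.49 (edgeR adjusted p 0.000667 and 0.000236), from 2 to 12 counts in intermediate. Its first step was -2.25 without early replicate 3 and -3.60 without intermediate replicate 3, and its second was 4.08 without intermediate replicate 3.

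The RB family and the other INK4 genes are the direct partners of these kinases and inhibitors. Rb1 rose by 0.44 at the first step (edgeR adjusted p 0.00370) and was 0.01 at the second (edgeR adjusted p 0.940). Rbl1 was 0.13 at the first step (edgeR adjusted p 0.664) and rose by 1.45 at the second (edgeR adjusted p 0.000123). Cdkn2c (p18) was -0.38 and 0.13 (edgeR adjusted p 0.0983 and 0.589). Cdkn2d (p19, INK4d) was -0.52 at the first step (edgeR adjusted p 0.214) and rose by 0.92 at the second (edgeR adjusted p 0.0335), a call lost without intermediate replicates 2 or 3 or any 1 full library (edgeR adjusted p 0.0509 to 0.111). Between full and BEC, where Cdkn2a and Cdkn2b rose, Cdkn2c was -0.54, at the threshold (edgeR adjusted p 0.0493) and not recomputed without single libraries, and Cdkn2d was 0.22 (edgeR adjusted p 0.689).

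**Figure D4:**
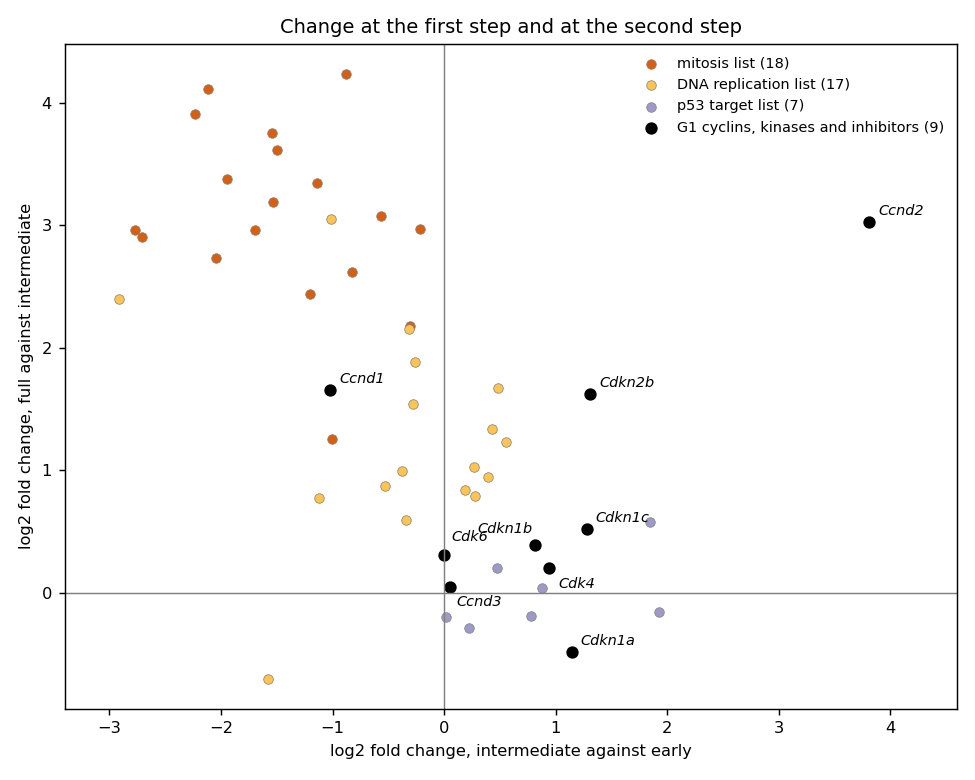
Log2 fold change of intermediate against early (horizontal) and of full against intermediate (vertical) for 9 of the 10 genes (black, Cdkn2a left out) and for the mitosis, DNA replication and p53 target lists. The intermediate libraries are shared by both axes. Ccnd1 lies in the upper left quadrant with the mitosis genes, and Cdkn1a lies in the lower right, at 1.14 and -0.48.

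Intermediate was also compared with the mean of early and full on the log2 scale, called both neighbours below. A gene above that mean can still be lower than in full. Called genes made up 16.4% of all genes tested, 10.8% higher and 5.64% lower. Of the 10 genes, Ccnd1 was lower than that mean (log2 fold change -1.34, SE 0.12, edgeR adjusted p 7.61e-06). Cdk4 (0.37, SE 0.07, edgeR adjusted p 0.00346) and Cdkn1a (0.81, SE 0.24, edgeR adjusted p 0.0344) were higher than it. Cdk4 did not peak in intermediate, where it had 125 to 131 CPM, against 145 to 154 in full. All 18 mitosis genes were lower, with a median of -2.38, as were 9 of 17 replication genes and 4 of 10 E2F and DP factors. Of the 8 partners between D-type cyclins and S phase 2 were lower, of the 3 RB family genes 1, and of the 2 other INK4 genes 0. Of 7 p53 targets, listed below, 3 were higher and 0 lower. Without intermediate replicate 2 the counts of mitosis and replication genes were 16 and 4. Ccnd1 was called in all alternatives run, with values between -1.42 and -1.11. The Cdkn1a call was lost with only the 9 libraries compared (0.81, edgeR adjusted p 0.0578) and without intermediate replicates 1 or 2 or full replicates 2 or 3 (edgeR adjusted p 0.0577 to 0.157). Of the 10, Ccnd1 alone was called lower at the first step and higher at the second, a pattern of 170 genes or 1.05% of those tested. Ccnd2, Cdkn1b and Cdkn2b were called higher at both steps, as were 12.8% of genes.

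The ratio of inhibitor counts to Ccnd1 counts within a library does not depend on scaling between libraries. Cdkn1a had 0.321, 0.407 and 0.111 counts per Ccnd1 count in early, 1.12, 1.41 and 1.06 in intermediate, 0.278, 0.243 and 0.299 in full and 0.0803, 0.109 and 0.0809 in BEC. Intermediate was above every other library. Cdkn1b gave 0.344 ± 0.125, 1.18 ± 0.0544, 0.494 ± 0.0485 and 0.292 ± 0.0207 in the same order (SD over 3 libraries). Each of the 3 comparisons of neighbouring groups gave an exact permutation p of 0.1 for both ratios, which is as low as 3 libraries a group allow. These ratios were chosen after the values had been seen. Both share the Ccnd1 count, so they are not independent. At the second step Cdkn1b itself rose by 0.39 on the log2 scale, but Ccnd1 rose by 1.65, so the Cdkn1b ratio fell. Counts were not divided by transcript length (2080 bases for Cdkn1a, 4552 for Cdkn1b and 3740 for Ccnd1), so a ratio of 1 marks no balance. Ccnd2 and Ccnd3 are not part of the ratios.

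**Figure D5:**
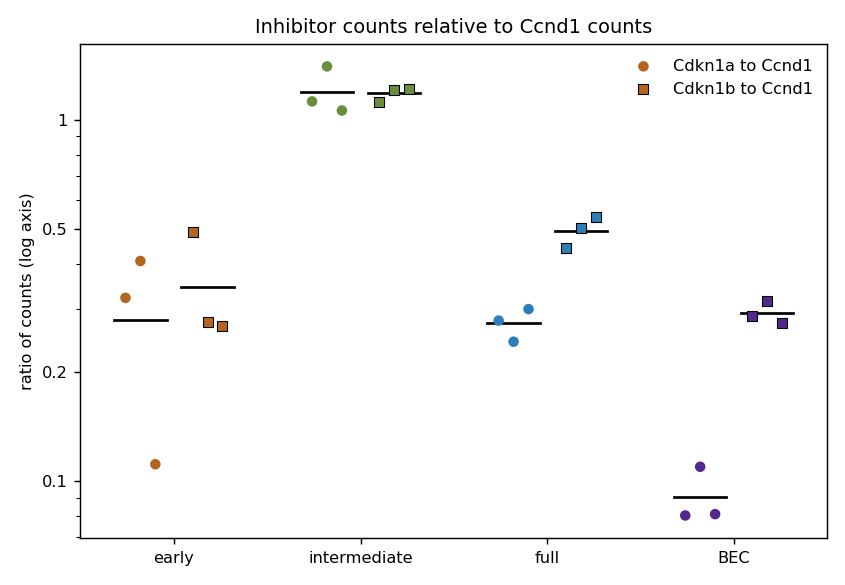
Counts of Cdkn1a (circles) and Cdkn1b (squares, outlined) per count of Ccnd1 in each library, on a log axis, with the group mean as a bar. Both ratios are above 1 in the 3 intermediate libraries and at most 0.538 in the other 9 libraries, the highest being Cdkn1b in full. Both share the Ccnd1 count and are not corrected for transcript length, so 1 is not a balance point.

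Since Cdkn1a is a p53 target, 7 other p53 targets were listed beside it. At the first step 5 of 7 were called higher (Ccng1, Phlda3, Zmat3, Eda2r and Sesn2), with a median log2 fold change of 0.78, beside 28.7% of all genes called higher. At the second step 0 of 7 were called by edgeR, 1 had an unadjusted p under 0.05, and DESeq2 called 0. With total counts 2 were called higher, and 1 with the replicate block, with no filter or without intermediate replicate 1. Eda2r, a TNF receptor family member, had 4.51, 4.82 and 3.97 CPM in early, 24.5, 11.9 and 14.2 in intermediate, 15.9, 12.1 and 17.4 in full and 6.65, 10.2 and 8.73 in BEC. It rose by 1.93 on the log2 scale at the first step (SE 0.27, edgeR adjusted p 4.55e-05). Mdm2, the p53 feedback inhibitor, was 0.02 at that step (edgeR adjusted p 0.896). The 7 genes summed to 196 to 231 CPM in early, 274 to 343 in intermediate, 280 to 344 in full and 304 to 317 in BEC. Their sum was thus not low in BEC, where the Cdkn1a mean was lowest. Of the 5 genes called, Phlda3 and Ccng1 had their highest means in BEC (42.0 and 96.8 CPM). Zmat3, Eda2r and Sesn2 had lower means there than in full.

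Genes with the most similar course were sought among 11261 genes with a mean of at least 5 CPM, by the root mean square difference of centred log2 CPM over the 12 libraries. Ccnd1 was closest to Brca1 (0.31) and Fzd1 (0.32), Ccnd2 to Col4a6 (0.31) and Rtn1 (0.34), and Ccnd3 to Trim41 (0.09) and Pomt2 (0.10). Cdk4 was closest to Wasf2 (0.05) and Itm2c (0.07), and Cdk6 to Mms19 (0.09) and Irf9 (0.10). For the inhibitors the nearest were Pqlc3 (0.34) and Numbl (0.35) to Cdkn1a, Sntb2 (0.07) and Zfp414 (0.08) to Cdkn1b, and Gbp2 (0.22) and Arrb2 (0.24) to Cdkn1c. Cdkn2a was nearest to Tmprss4 (0.40) and Cyp2s1 (0.50), and Cdkn2b to Ttc22 (0.25) and Ucp2 (0.38).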

How the data were processed

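RNA of 12 libraries of sorted mouse liver cells, 3 in each of 4 groups taken from the sample titles, was sequenced. The authors deposited raw counts per gene symbol and, as a second table, a normalized signal that is each count over its library's size factor. Per the submitters' processing notes, STAR 2.7.10b, featureCounts 2.0.1, DESeq2 and GRCm39 were used; the annotation, strand setting and handling of multi-mapping reads are not given in the sources used here. Only the counts were tested.

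Genes were kept by filterByExpr and scaled by TMM. All 12 libraries entered 1 edgeR 4.0.16 fit (R 4.3.3, limma 3.58.1) with a term per group and quasi-likelihood tests, and calls had a Benjamini-Hochberg adjusted p under 0.05 over 16210 genes. Standard errors came from the F statistic, and 95% intervals used 8 degrees of freedom. DESeq2 1.42.0, other scalings and filters, a replicate block and fits without each library were alternatives. The procedure was tested on simulated counts in which few genes changed, equally up and down. In these data many genes changed, so that test does not bear on the scaling. Transcript and coding lengths came from GENCODE M21. Floors cover counting error only. Figures used Python 3.11.15 and matplotlib 3.10.9.

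Deviations from group means correlated between same-numbered libraries at r from 0.121 to 0.322 across genes for the 3 comparisons of neighbouring groups. For full and early r was 0.209, 0.0960 and 0.135. These values do not settle whether the numbers mark pairs, and the main fit had no replicate term. What the numbers mark is not stated. Genes and lists were chosen with earlier results of these data known. The text names all 10 genes, listed cycle genes, the gene with the largest change in each list against both neighbouring stages, and the 2 nearest genes of each member; other called genes of short lists were named after their values were seen. 1 gene of the DNA replication list is not reported by name here.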

Additional observations from a re-analysis of the deposited data

How the results depend on the processing

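Among the 10 genes, apart from fits that each omit 1 library, 300 of 333 values kept direction and side of the threshold, 19 gained a call, 3 lost one and 11 changed sign, all near 0 or with total counts. With total counts, 6139 genes and 5 of the 10 were called for intermediate against the mean of early and full, in place of 2665 and 3. The added genes were Cdkn1b and Cdkn1c, each lower in every intermediate library than in every full library. Of the 6139 calls 92.8% were higher, against 65.7% of the 2665. The same scaling turned the sign of Cdk6 at the first step (0.66) and, against both neighbours, of Ccnd3 (0.23), Cdk6 (0.0770) and Cdkn2b (0.0739), and of Cdkn2c (0.29), Cdkn2d (0.15), Mcm5 (0.34) at the first step and Eda2r (0.0447) at the second. Values near 0 also changed sign for Cdkn1b in BEC against full with DESeq2 (0.000385), median-of-ratios factors (0.00386) and the filter at a mean of 50 counts (0.00496), for Ccnd3 at the first step with median-of-ratios factors (-0.00503), for Cdk6 there with no filter (0.0398) and for Ccnd3 against both neighbours with no filter (0.0156). That last value was 0.00252 with the replicate block. The filter at 50 counts left 3 of the 10 called in BEC against full, since it does not test Cdkn2a and Cdkn1a reached an adjusted p of 0.0597. Per kilobase of coding sequence, the shares in early, intermediate, full and BEC were 82.5%, 59.7%, 56.1% and 60.1% for Ccnd1, 0.694%, 14.5%, 36.05% and 34.1% for Ccnd2, and 16.8%, 25.8%, 7.90% and 5.75% for Ccnd3. The cause of the other changes was not tested.

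Fits without 1 library gave between 1676 and 2863 genes for intermediate against both neighbours, where Ccnd3 ran from -0.0595 to 0.0625 and Cdkn2b from -0.466 to 0.0407. At the first step Ccnd3 ran from -0.0703 to 0.174, Cdk6 from -0.0361 to 0.0288, Ccne2 from -1.07 to 0.206, Rbl1 from -0.143 to 0.357 and Mcm5 from -0.672 to 0.607. At the second Rb1 ran from -0.0318 to 0.0811 and Eda2r from -0.357 to 0.212. In BEC against full Cdk4 ran from -0.0959 to 0.000263 and Cdkn1b from -0.0341 to 0.0278, and in full against early Ccnd3 ran from -0.0217 to 0.223. The replicate block added 2 calls among the 10 genes and ended none. These were Ccnd2 in BEC against full (0.58) and Cdkn1a in full against early (0.75, edgeR adjusted p 0.0114). For full and early, r between same-numbered libraries was as low as 0.0960. Low counts limit Ccnd2 in early (9 to 22) and Cdkn2b in early (6 to 10).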
